A study of Mus musculus with 2 samples.

Results

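The genes described here are the mouse Rab GTPases, taken as every symbol in the deposited table made of Rab, a number and at most a single lower-case letter. They were 57 of 23988 genes. The libraries came from untransformed C57BL/6 myeloid progenitors: bone marrow cells depleted of lineage-marked cells and cultured for 7 days in IL3, SCF and IL6. The only group held 2 libraries, here called replicate 1 and replicate 2, without genotype or treatment beyond the culture. The series title concerns HOXA9 and MEIS1 leukaemia cells, which were not analysed here, so the data answer which Rab genes the progenitors expressed and how closely the libraries matched. The labels do not tie the libraries to separate cultures or animals, and the spread between them may be technical. The smallest p of an exact permutation test that flips the sign of 2 libraries is 0.5, so no comparison was tested.

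Rab proteins are small GTPases that mark the membranes of the secretory and endocytic pathways. A Rab protein is loaded with GTP by an exchange factor (GEF), recruits effectors such as tethers and motor adaptors to its membrane, and is switched off by a GTPase activating protein (GAP). It carries prenyl groups that hold it in the membrane, and GDP dissociation inhibitor returns it to the cytosol. In granulocytes and mast cells, Rab27 proteins and other granule Rab proteins act in the docking and release of secretory granules.

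The labelled cell type was checked against lists of markers. Marker values are deposited RPKM, and the gene lengths behind them were not checked, so sums over markers may weight genes by wrong lengths. All 8 progenitor and granulocyte markers, among them Mpo, Elane and Kit, were at 1 RPKM or more in both libraries. None of the 4 B cell, 4 T cell and 5 erythroid markers reached that level in both, although the erythroid markers Klf1 and Epor were at 1.47 and 1.56 RPKM in replicate 2. The libraries stood apart in several lists. The progenitor and granulocyte markers summed to 5304 RPKM in replicate 1 and 4354 in replicate 2. Of these 8 markers, 3 were higher in replicate 2, and the median log2 ratio, replicate 2 over replicate 1, was -0.20. All 8 mast cell markers were higher in replicate 2, with a summed level of 285 RPKM in replicate 1 and 1392 in replicate 2. The same held for all 8 monocyte and macrophage markers, with sums of 1205 and 3384 RPKM. At 1 RPKM or more in both libraries were 6 of 8 mast cell markers and all 8 monocyte and macrophage markers. Mcpt4 and Tpsb2 were at 0.195 and 0.666 RPKM in replicate 1. No mast cell or monocyte and macrophage marker was at 0 in both libraries. All 4 platelet markers were detected and higher in replicate 2, 3 of them by at least 1.5-fold, with sums of 44.7 and 77.5 RPKM. In such bulk samples, more cells of a type and more RNA per cell cannot be told apart.

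RPKM is the number of reads per kilobase of gene length scaled to the size of the library. The effective library sizes, read from the steps of low values, were 29941063 and 28793666 reads and can hold a normalisation factor as well. At 1 kb of length, 1 read was worth 0.0334 RPKM in replicate 1 and 0.0347 in replicate 2, and 3 reads, the limit that a count of 0 allows, were worth 0.10 RPKM in each library. For all 57 Rab genes a length was found that gave whole reads at these sizes, within 0.00042 reads. Lengths were searched for this property, so it is no check on them. In this stretch of the table, the lengths behind the values were not those of the genes in the same row. Among single-length genes in the rows around the Rab genes, 40 of 182 values (22.0%) gave whole reads, within 0.001 reads, with the length of the gene 2 rows above. At 8 other offsets, the gene's own row included, 0 of 122 to 193 values did. For 40 of the 57 Rab genes the fitting length lay within 15% of a reference transcript of the gene 2 rows above, with multiples of up to 6 allowed. Deposited RPKM in these rows thus rest on the length of another gene. This leaves the plain ratio between the libraries as it is. The ratios of RPKM + 1 and the filters on mean RPKM used below do depend on the length. Levels of different genes cannot be compared per length on the deposited scale.

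Levels were therefore also computed with each gene's own length, read from the row that it had divided, a scale added after the data were seen and called own-length RPKM here. For 30 members both lengths were settled against reference transcripts. For the other 27 at least 1 of the lengths was not settled. Either a multiple could not be told apart from the length itself, or the fitting length lay far from every reference transcript. Where values at the smallest fitting length and at the length nearest to a reference differ, both are given for members with a deposited mean of 1 RPKM or more. Smallest lengths were paired with smallest and nearest with nearest, and mixed pairs were not computed. Among the 30, own-length values were 0.0414 to 5.72 times the deposited values, and for 18 of them the change was over 2-fold. Rab27b had the largest factor downward, 24.1-fold: the deposited table listed it at 50.2 and 67.2 RPKM, and its own-length values were 2.08 and 2.79. Ranks of the 30 genes on the deposited and own-length scales had a Spearman rho of 0.859 in replicate 1 and 0.880 in replicate 2, given as a description across genes that share reads and library.

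**Figure D1:**
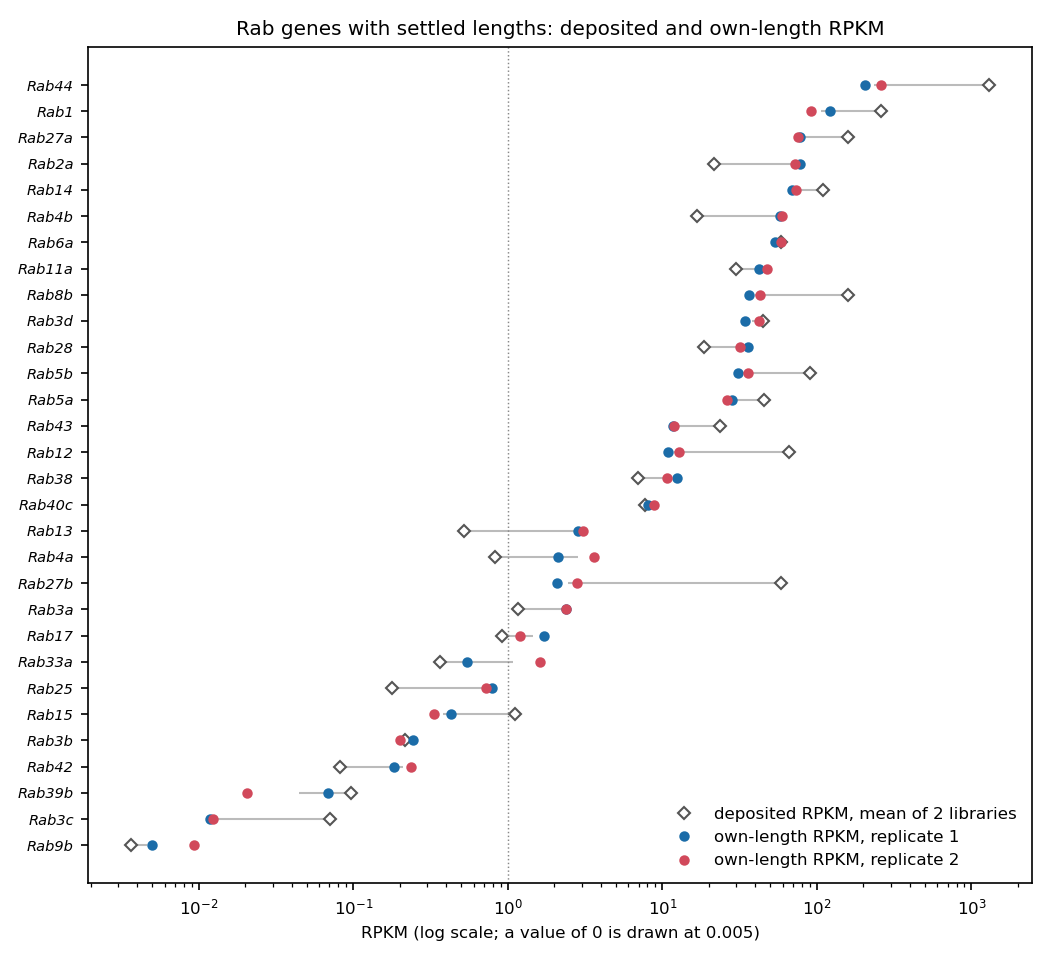
RPKM (log scale) of the 30 Rab genes with settled lengths, with the genes in order of their mean own-length value; diamonds are deposited means over 2 libraries, circles are own-length values of each library, and grey lines join the deposited and own-length means. Rab44 was highest on both scales, and Rab27b moved from a deposited 50.2 and 67.2 RPKM to 2.08 and 2.79.

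Most Rab genes were detected. On the deposited scale 39 of 57 (68.4%) were at 1 RPKM or more in both libraries, beside 43.5% of all genes, whose deposited lengths were not corrected. By own length 41 were detected, and 42 with the length nearest to a reference. The count was 38 on all these scales together, and 15 members passed on none. The median deposited level was 19.8 RPKM in replicate 1 and 17.4 in replicate 2, beside 0.318 and 0.483 for all genes. By own length the Rab medians were 13.1 and 12.4 RPKM.

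Sequence near the gene starts was compared for 47 of the 57 members, matched to 59 RefSeq windows of 250 bases upstream (build GRCm38.p6). The median GC content was 61.6%, beside 52.4% over all genes, and the median count of CG dinucleotides was 16 beside 6. The 34 members detected by own length had medians of 63.0% and 18.75, and the 13 others 58.4% and 9.75. No window was matched for Rab44, Rab2a, Rab4a, Rab18, Rab27b, Rab37 and Rab38, all detected by own length, nor for Rab26, Rab30 and Rab36. GC content and level did not always go together: Rab6b, under 1 RPKM, had the highest values of the family, 80.8% GC and 40 CG, and Rab9b, with 0 and 1 reads, had 64.4% and 16. Among the Rab3 paralogs, Rab3a, at 2.37 and 2.37 own-length RPKM, had means of 61.6% and 15.5 over its windows. Of the other Rab3 genes, Rab3d was at 34.1 and 42.3 own-length RPKM, and Rab3b and Rab3c were at 0.241 and 0.199 and at 0.0118 and 0.0123. Their windows follow, 5′ to 3′ on the gene's strand, with that of the first Rab27a start for comparison, and capitals mark each CG.
Rab3d, chr9:21918184-21918433, minus strand: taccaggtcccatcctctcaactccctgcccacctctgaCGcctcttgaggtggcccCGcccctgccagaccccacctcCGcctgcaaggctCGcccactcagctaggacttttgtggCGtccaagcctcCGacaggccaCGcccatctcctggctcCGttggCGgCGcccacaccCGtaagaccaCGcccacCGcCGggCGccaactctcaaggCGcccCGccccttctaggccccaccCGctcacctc
Rab3b, chr4:108878820-108879069, plus strand: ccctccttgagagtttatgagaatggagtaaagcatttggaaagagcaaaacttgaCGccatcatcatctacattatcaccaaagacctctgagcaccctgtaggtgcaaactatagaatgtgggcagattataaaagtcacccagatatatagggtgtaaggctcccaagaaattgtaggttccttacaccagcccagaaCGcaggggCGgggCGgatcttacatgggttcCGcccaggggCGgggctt
Rab3c, chr13:110280207-110280456, minus strand: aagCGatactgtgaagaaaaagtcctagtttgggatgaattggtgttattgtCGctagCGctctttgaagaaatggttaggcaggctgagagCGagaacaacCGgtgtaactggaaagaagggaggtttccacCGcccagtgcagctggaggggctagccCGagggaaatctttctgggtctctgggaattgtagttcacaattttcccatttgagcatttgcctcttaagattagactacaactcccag
Rab27a, chr9:73044560-73044809, plus strand: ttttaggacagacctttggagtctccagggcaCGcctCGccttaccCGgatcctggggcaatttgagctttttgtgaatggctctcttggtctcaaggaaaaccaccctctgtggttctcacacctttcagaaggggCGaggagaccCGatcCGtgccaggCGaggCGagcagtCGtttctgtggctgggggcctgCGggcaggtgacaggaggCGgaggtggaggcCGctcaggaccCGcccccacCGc
The Rab3d window held 18 CG and was 69.2% GC, while the Rab3b and Rab3c windows held 6 and 7 CG at 48.8% and 47.6% GC. The Rab27a window held 14 CG at 62.0% GC, and the window of its other start, not printed, held 5 CG at 51.6% GC. Motifs were searched as letters on both strands. CCAAT was in 40.7% of member windows and 33.9% of all windows, CACGTG in 8.47% and 6.02%, CCGGAA in 13.6% and 12%, and TATAAA in 6.78% and 12.4%. These are matches of letters, not binding sites. The motifs and the printed windows were chosen after values were seen.

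Granule Rab genes included the highest of the members with settled lengths. Rab44, a large Rab protein with EF-hand motifs that acts in mast cell degranulation, had 25300 and 30717 reads and 206 and 259.9 own-length RPKM (233 ± 38.2, SD, n = 2). It was listed at 1150 and 1451 deposited RPKM, which ranked it 62 and 52 among all genes. It made up 35.2% and 40.5% of the summed deposited RPKM of the family, but 10.03% and 12.6% by own length. It stood above all other settled members in both libraries. Of the unsettled ones, Rab7, Rab24 and Rab32 would exceed it in a library at some of the lengths computed here. Rab27a, which docks secretory granules at the plasma membrane, was at 77.7 and 75.9 own-length RPKM (deposited 161 and 157). Rab3d, found on secretory granules, was at 34.1 and 42.3 (deposited 39.8 and 49.2). Thus, on the corrected scale, both lay far below Rab44 and well above their paralogs. Rab38, which acts with Rab32 in the formation of melanosomes and related organelles, was at 12.4 and 10.7 (deposited 7.46 and 6.44). Rab32 was listed at 55.3 and 45.7, and by own length at 51.9 and 42.9 or, with the nearest reference length, at 259.5 and 214. Rab37, described on mast cell granules, was listed at 10.1 and 14, with own-length values of 15.6 and 21.5 or 7.80 and 10.8. Rab27b, the granule paralog of Rab27a, was low by own length, and so was Rab3a, the synaptic vesicle member, at 2.37 and 2.37 (deposited 1.16 and 1.16). Rab26, Rab3b and Rab3c were under 1 RPKM in both libraries. Rab3c had only 3 reads in each library, which is at the limit of a count of 0.

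In the ER and Golgi group, 9 of 14 members were detected on each scale. Rab1, which controls transport from the ER to the Golgi, was at 121 and 91.7 own-length RPKM (deposited 294 and 223). Rab2a, a Rab of the ER-Golgi interface, was at 77.3 and 71.8 although it was listed at 22.3 and 20.8. Rab6a, which acts in traffic within and out of the Golgi, was at 53.7 and 58.8 (deposited 56.1 and 61.5). Rab1 stood above Rab2a and Rab6a in both libraries. Rab27a lay above Rab2a in each library, by little in replicate 1, and their values overlapped across the libraries. The level of Rab1b, a close paralog of Rab1, was not settled: 76.1 and 71.2 or 152 and 142 own-length RPKM, from a deposited 37.9 and 35.4. Rab43, a Golgi Rab, was at 11.7 and 11.9 (deposited 23.2 and 23.6). Rab18, found at the ER and on lipid droplets, was listed at 28.0 and 29.6, and by own length at 23.7 and 25.1 or 11.9 and 12.6. Rab33b, a Golgi Rab that binds Atg16l1, was listed at 14.5 and 12.5, with own-length values of 17.2 and 14.8 or 8.59 and 7.42. These last members lay between the high and the undetected ones. Rab19 was listed at 5.41 and 6.32 and stood at 7.99 and 9.33 by own length. Rab2b was listed at 2.59 and 3.99, with own-length values of 6.16 and 9.48 or 1.54 and 2.37. Rab34 was listed at 0.716 and 1.31, with own-length values of 0.925 and 1.69 or 0.462 and 0.846. It was under the detection level in replicate 1 on each scale. Rab33a, Rab6b, Rab36 and Rab30 were between 0.0325 and 0.540 deposited RPKM.

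Of the early endosome group, 7 of 8 members were detected on the deposited scale and 8 by own length. Rab5 proteins drive early endosome fusion. Rab5c was at 166 and 180.5 by own length (deposited 111 and 120.1), with a length that was not settled. Rab5b was at 30.8 and 35.7 (deposited 83.5 and 96.9). Rab5a was at 28.4 and 26.2 (deposited 47.5 and 43.8). At that length Rab5c was well above its paralogs in both libraries, and Rab5b lay above Rab5a in both. Rab21, which binds integrins, was listed at 61.5 and 49.4, and by own length at 124 and 99.4 or 24.7 and 19.9. Rab22a, of early and recycling endosomes, was listed at 64.8 and 48.3, with own-length values of 24.5 and 18.3 or 12.2 and 9.13. Rab31, which acts between the trans-Golgi and endosomes, was listed at 37.2 and 41.2, with 7.38 and 8.17 or 29.5 and 32.7 by own length. These levels span several fold with the choice of length and give no order. Rab20, of phagosomes, was listed at 7.16 and 6.78, with 13.1 and 12.4 or 6.55 and 6.21 by own length. Rab17, known from epithelial cells, was at 1.71 and 1.19 (deposited 1.08 and 0.755).

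Recycling endosome genes were led by Rab14 among the settled members, at 69.4 and 73.4 own-length RPKM (deposited 106 and 113). Rab4b, of fast recycling, was at 57.7 and 59.5 although listed at 16.5 and 17.0. Rab11a, of the slow recycling route, was at 42.5 and 47.5 (deposited 28.2 and 31.6). The order Rab14, Rab4b, Rab11a held in both libraries. Rab11b was listed at 121 and 119.8, with own-length values of 107 and 106 or 21.4 and 21.2. Rab35, of endosomal recycling and actin, was listed at 21.5 and 21.5, with 17.3 and 17.2 or 34.6 and 34.5 by own length. Rab4a was at 2.11 and 3.59, a 1.71-fold difference on 89 and 146 reads (deposited 0.609 and 1.04). It lay far below Rab4b on either scale. Rab15 was listed at 1.25 and 0.973 and was under 1 RPKM by own length, as was Rab25.

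Late endosome, lysosome and autophagy genes numbered 4, and 3 were detected. Rab7, the Rab of late endosome and lysosome fusion, was listed at 41.5 and 31.6, with 221 and 168 or 73.6 and 56.0 by own length. Rab9, which returns mannose 6-phosphate receptors to the Golgi, was listed at 25.3 and 17.7, with 17.6 and 12.3 or 87.8 and 61.4 by own length. Rab24, linked to autophagy, was listed at 70.2 and 97.0, with 71.8 and 99.3 or 287 and 397 by own length. All these were above 10 RPKM on any scale, but no order can be given. Rab9b had 0 reads in replicate 1 and 1 in replicate 2.

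The 5 genes of polarised exocytosis were all detected by own length. Rab8b was at 36.6 and 42.8, although listed at 146 and 171. Rab8a was listed at 195 and 209, with 121 and 129 or 72.6 and 77.6 by own length. Rab8a, which carries vesicles to the plasma membrane and cilium, stood above Rab8b at each of these values. Both lengths behind Rab8a were unsettled and their other pairings were not computed, so this order is not settled. Rab10, of GLUT4 and basolateral traffic, was at 33.8 and 36.5 (deposited 30.5 and 33.0), with a length that was not settled. The antisense genes Rab10os and Rab26os are also in the table, and since the strand setting is not given in the sources used here, their reads cannot be told apart from those of Rab10 and Rab26. Rab12, of recycling endosome to lysosome transport, was at 10.8 and 12.8, although listed at 60.7 and 72.1. Despite that route, Rab12 was counted in this group and not among the endosomal genes in the group comparisons. Rab13, of tight junction traffic, was at 2.84 and 3.08, although listed at 0.496 and 0.539. Of the 7 remaining members, Rab28, a ciliary Rab, was at 36 and 31.5 (deposited 19.8 and 17.4) and Rab40c, a SOCS box Rab, at 8.06 and 8.87 (deposited 7.39 and 8.13). Rab23, a regulator of Hedgehog signalling, was listed at 2.12 and 2.48, with 0.432 and 0.503 or 2.16 and 2.52 by own length. Rab42, Rab39, Rab40b and Rab39b were between 0.0288 and 0.495 deposited RPKM.

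**Figure D2:**
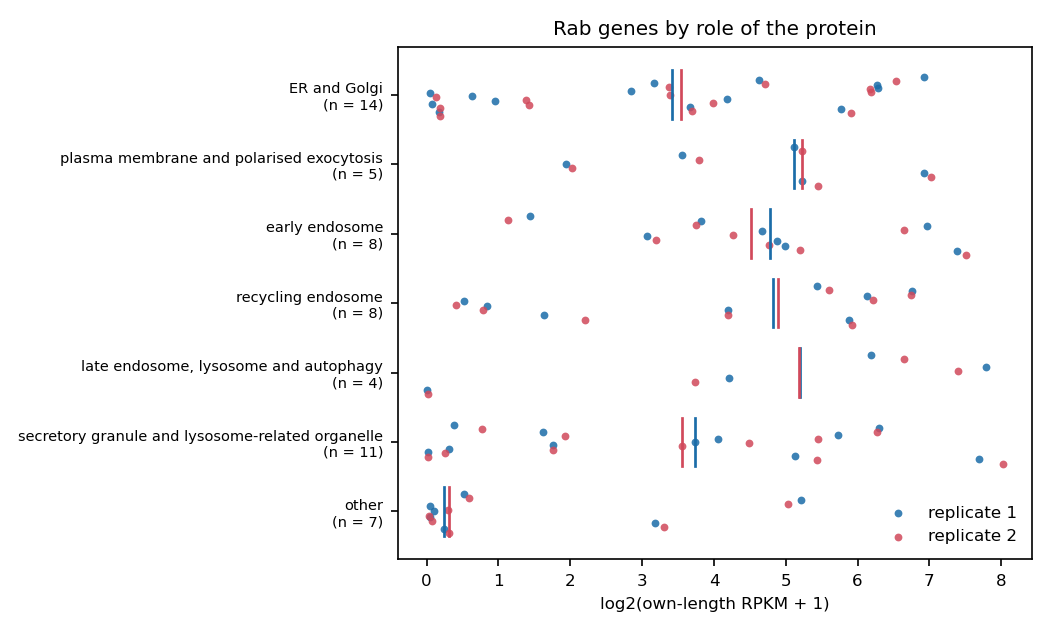
log2(own-length RPKM + 1) of the 57 Rab genes by the role of the protein, a circle per gene and library, with a vertical line at each library's median; unsettled members are drawn at their smallest fitting length. Median own-length RPKM were lowest in the group of other roles (0.182 and 0.236) and highest in the late endosome group of 4 genes (44.7 and 55.8), and Rab44 was the rightmost point.

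Groups were compared by the difference of their medians of log2(RPKM + 1) within each library, and a mean difference of more than 2 SD, with the same sign in each library, counts as beyond the spread. This spread is between the 2 libraries only, which may be technical. It does not measure how far genes within a group differ, so passing it does not show that the groups differ beyond the choice of genes. The 20 endosomal genes were above the 11 granule genes by 1.36 ± 0.33 on the deposited scale (SD, n = 2), by 0.999 ± 0.05 by own length and by 1.57 ± 0.28 with the nearest reference length. All these were beyond the spread between libraries. As a difference of means in place of medians, the deposited value was 0.33 ± 0.11. With members under a mean of 1 RPKM left out, the deposited difference was -0.082 ± 0.10. The same step by own length, added after the data were seen, gave 0.31 ± 0.12, and 0.60 ± 0.07 with the nearest reference length, both beyond the spread. The ER and Golgi genes differed from the granule genes by -0.37 ± 0.30, within the spread, and by -0.17 ± 0.22 by own length. With low members left out, the difference was -1.003 ± 0.09 on the deposited scale, beyond the spread, -0.69 ± 0.40 by own length, within it, and -0.764 ± 0.0057 with the nearest reference length, beyond it.

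In most subfamilies a single paralog carried the signal. Of 13 subfamilies with 29 members, 12 had a member at a mean of 1 RPKM or more, and in 12 of 12 the highest paralog was the same in both libraries. Where both paralogs were settled, Rab27a made up 97.4% and 96.5% of own-length Rab27 (deposited 76.3% and 70.0%), and Rab4b 96.5% and 94.3% of Rab4. Rab3d made up 92.9% and 94.2% of the Rab3 genes, all settled. Rab6a made up 99.8% of Rab6 in each library, although Rab6b was not settled. The Rab1 and Rab11 subfamilies depended on the length: Rab1 led with 61.4% and 56.3% at the smallest length, and Rab1b with 55.7% and 60.8% at the nearest reference length. Rab11b likewise led with 71.6% and 69.0%, or Rab11a with 66.5% and 69.2%.

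**Figure D3:**
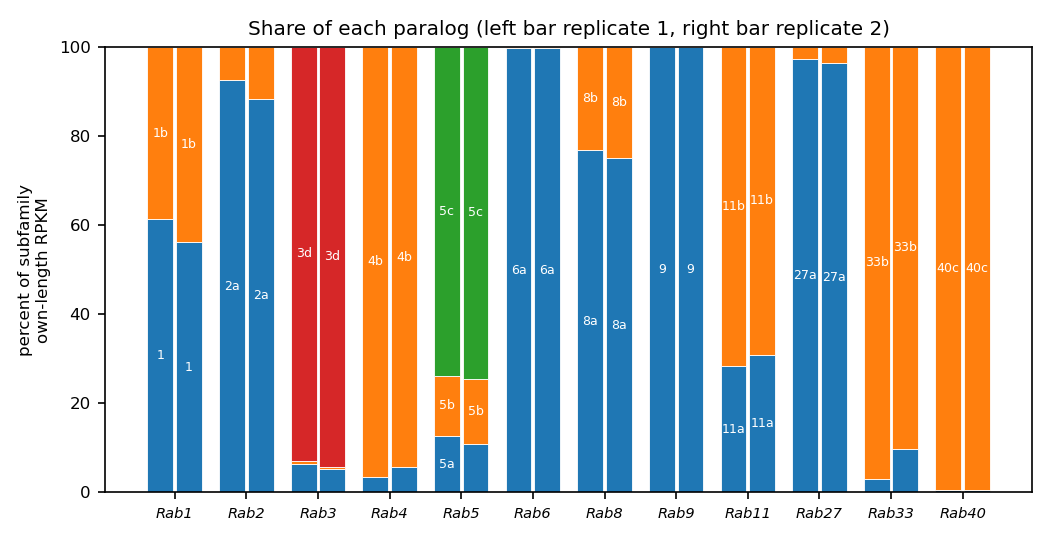
Share (%) of each paralog in the summed own-length RPKM of its subfamily, with the left bar for replicate 1 and the right bar for replicate 2 and the smallest fitting length for unsettled members; letters name paralogs above 12%. In 12 of 12 subfamilies the leading paralog was the same in both bars.

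On the deposited RPKM + 1 scale, which understates the differences of low genes, no Rab gene above the low filter passed 1.5-fold between the libraries. Among the 41 members that averaged at least 1 deposited RPKM, 0 reached a 1.5-fold higher value in replicate 2, beside 11.3% of 10896 genes, and 0 were so in replicate 1, beside 4.26%. With a pseudocount of 0.1, Rab2b and Rab34 passed 1.5-fold in replicate 2. By own length Rab33a, which the deposited filter left out, passed it as well, with a log2 ratio of 0.76. For the 41 members on the deposited scale, the median log2 ratio, replicate 2 over replicate 1, was 0.08 beside -0.05 for all genes. Their ratios ranged from -0.49 to 0.47. The SD of the members' ratios was 0.25 beside 0.55 over all genes. Within 1.25-fold were 31 members (75.6%) beside 60.5% of all genes. The 10896 genes were not matched to the members in level or reads, and the part of level in these spreads and counts was not tested. Across the 57 members, the log2(RPKM + 1) values of the libraries had Pearson's r of 0.996 and Spearman's rho of 0.991, a description across genes that are not independent replicates. Each member's ratio was also given an exact binomial interval from its reads, which covers counting error only. For unsettled members the reads rest on the smallest length that fits, and a multiple of it would narrow the interval. With a single library on each side, no difference has a replicate check.

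Granule members were among those higher in replicate 2. Rab44 was higher by 1.26-fold (95% exact interval 1.24 to 1.28), Rab3d by 1.24-fold (95% exact interval 1.19 to 1.29), Rab37 by 1.38-fold (95% exact interval 1.25 to 1.53) and Rab27b by 1.34-fold (95% exact interval 1.18 to 1.52). Others of the group were not: Rab32 was higher in replicate 1 by 1.21-fold (95% exact interval 1.15 to 1.28) and Rab38 by 1.16-fold (95% exact interval 1.02 to 1.31), while the interval of Rab27a, 0.943 to 1.01, included 1. Over the 8 group members that averaged at least 1 RPKM the median log2 ratio was 0.15, with 4 above 0 and 4 below. The mast cell marker sum, over deposited values with lengths not checked, was 285 RPKM in replicate 1 and 1392 in replicate 2. The median log2 ratio over the 8 markers was 3.43, and the part of mast cell content in the granule Rab ratios was not tested. The monocyte and macrophage markers had a median of 1.45.

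Outside the granule group, Rab24 was higher in replicate 2 by 1.38-fold (95% exact interval 1.33 to 1.44) and Rab2b by 1.54-fold (95% exact interval 1.22 to 1.94) on 127 and 188 reads. The 16 endosomal genes that averaged at least 1 RPKM were split, with 7 higher and 9 lower in replicate 2. At the lower end of the 16, Rab9 was higher in replicate 1 by 1.43-fold (95% exact interval 1.28 to 1.60), Rab22a by 1.34-fold (95% exact interval 1.24 to 1.46), Rab7 by 1.31-fold (95% exact interval 1.25 to 1.38) and Rab21 by 1.24-fold (95% exact interval 1.18 to 1.31). At the upper end of the 16, after Rab24, Rab5b was higher in replicate 2 by 1.16-fold (95% exact interval 1.10 to 1.22) and Rab11a by 1.12-fold (95% exact interval 1.06 to 1.18). Rab1 was higher in replicate 1 by 1.32-fold (95% exact interval 1.28 to 1.36). Of the 3 late endosome genes with a mean of 1 RPKM or more, 2 were lower in replicate 2, and the median log2 ratio was -0.38. Among low members, Rab39 had 3 and 20 reads, a ratio of 6.93-fold (95% exact interval 2.06 to 36.4), and Rab33a 19 and 54, a ratio of 2.96-fold (95% exact interval 1.72 to 5.28). These intervals, too, lay above 1.

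**Figure D4:**
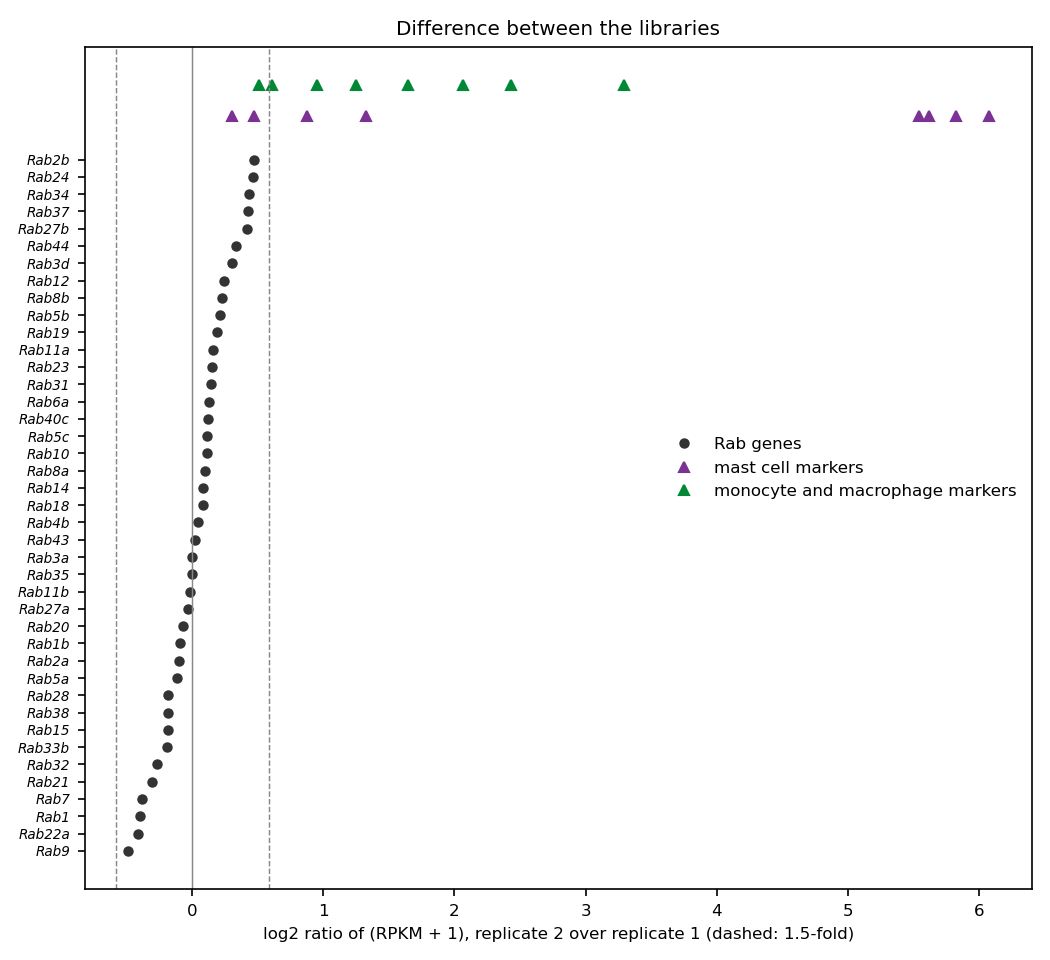
log2 ratio of (deposited RPKM + 1), replicate 2 over replicate 1, for the 41 Rab genes with a mean of 1 RPKM or more (circles) and for mast cell and monocyte and macrophage markers (triangles); dashed lines mark 1.5-fold. All 41 Rab genes lay between the dashed lines, from -0.49 (Rab9) to 0.47 (Rab2b), while all 16 markers lay to the right of 0.

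The genes that act on Rab proteins were taken from lists of regulators and effectors. Of 125 in the table, 101 (80.8%) were detected, beside 43.5% of all genes. Their values are deposited RPKM whose lengths were not checked, so no order between genes is read from them. Exchange factors were detected in 34 of 38, with Trappc3 and Trappc4, subunits of the TRAPP complexes, at 95.3 and 80.4 and at 73.5 and 69.0 RPKM. Madd, an exchange factor for Rab3 and Rab27, was at 51.5 and 54.9. GTPase activating proteins were detected in 31 of 37, with the TBC domain genes Tbc1d13 at 61.9 and 58.4, Tbc1d8 at 36.5 and 34.7 and Tbc1d10c at 34.9 and 34.9. All 8 genes of prenylation and membrane cycling were detected. Gdi2, a GDP dissociation inhibitor, was at 248 and 233 RPKM, and Rabac1, a prenylated Rab acceptor, was at 54.7 and 73.8. Effectors were detected in 28 of 42. Ocrl, a phosphoinositide phosphatase, was at 65.0 and 57.2, Rilpl2 at 56.3 and 54.4, and Myo5a, the myosin motor linked to Rab27a granules, at 40.5 and 37.7.

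Between the libraries, 8 of 103 regulator and effector genes with a mean of 1 RPKM or more (7.77%) were at least 1.5-fold higher in replicate 2, beside 11.3% of all genes. In the other direction it was 0 of 103, beside 4.26%. By list, 3 exchange factors, 1 GTPase activating protein, 0 genes of prenylation and cycling and 4 effectors were higher. At least 2-fold higher at a mean of 5 RPKM or more were Rin2, an exchange factor for Rab5, at 18.8 and 63.7 RPKM, Appl2, a Rab5 effector, at 7.59 and 25.5, and Rab11fip5, a Rab11 effector, at 7.86 and 17.5. The Rab genes they act with had smaller ratios: Rab5a, Rab5b and Rab5c had log2 ratios of -0.11, 0.21 and 0.12, and Rab11a and Rab11b of 0.16 and -0.01. With 1 library on each side, these differences have no replicate check.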

How the data were processed

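Total RNA, purified on RNeasy columns with DNase treatment, went into TruSeq RNA libraries, per the labels' protocols. The authors deposited RPKM values, a column for each of the 2 libraries. Tools in the submitters' processing notes are Trimmomatic 0.32, TopHat2, HTSeq, edgeR and mm9. Not given in the sources used here were the strand setting, the annotation and the library sizes behind the RPKM. Rows with names in the form of dates (27 of 24015) were left out. All gene lists and members were chosen with earlier results of these data known.

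Library sizes were taken from genes whose values give whole reads (458 genes with equal reads, 196 setting the scale). The length of each Rab gene came from the row 2 below it. The smallest fitting length no shorter than the coding length was used when within 15% of a GENCODE vM21 transcript, otherwise a multiple of up to 6 within 0.5%, otherwise it was marked as not settled. This rule was revised several times after its output was seen, and earlier forms settled other members. Code was tested on simulated data. Detection was 1 RPKM in both libraries, and ratios used a pseudocount of 1 and a mean of 1 RPKM or more. Every member with a mean of 1 RPKM or more is given with both values. Of each regulator list, the 3 highest and those 2-fold different at 5 RPKM or more are named, except an item not reported here. Protein sequences were not used here. Promoter windows are RefSeq's, without their last 50 bases. In 53 of 59 windows the last 20 bases lay in a transcript of the gene on that strand. Alternatives were another pseudocount, filter, detection level, fold, centring or summary, and each library left out. Python 3, numpy, pandas, scipy and matplotlib were used.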

Additional observations from a re-analysis of the deposited data

How the results depend on the processing

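No paired analysis was possible because the labels give a single group. Of 60 alternative settings over 9 results, 49 left the result on its side and in its direction or moved it by less than the spread. Counts were called unchanged within 1.5-fold. Some of the 49 could not have come out otherwise. With 2 libraries, leaving out either always moves the median level or a group difference by less than the SD. No member was at 0 in both libraries, so leaving out such members changed nothing. With 0 Rab genes past 1.5-fold, a limit of 2-fold or a filter of 5 RPKM could only give 0 again. For the Rab library difference, the spread of 0.129 was larger than the value itself, 0.078, so few settings could have moved it. The median Rab level of 18.6 RPKM became 11.8 as the mean of log2(RPKM + 1) turned back to RPKM, 12.8 by own length and 11.2 with the nearest reference length. The number of Rab genes 1.5-fold higher in replicate 2 went from 0 to 2 (Rab2b and Rab34) with a pseudocount of 0.1, and to 1 (Rab33a) by own length and to 1 with the nearest reference length. Leaving out members under 1 RPKM turned the endosomal minus granule difference from 1.36 to -0.082 on the deposited scale, while the same step gave 0.31 by own length and 0.60 with the nearest reference length. The ER and Golgi minus granule difference of -0.37 passed the spread at -1.003 with low members left out (-0.76 with the nearest reference length as well), at -0.79 as a difference of means and at -0.56 without the highest member of each group; the cause was not tested. Without replicate 1 or replicate 2, detected Rab genes numbered 41 in each case, the median level was 17.4 to 19.8 RPKM, the endosomal minus granule difference 1.12 to 1.59, the ER and Golgi minus granule difference -0.59 to -0.16, and the detected regulators and effectors 102 to 103. The own-length settings were added after the data were seen. The 15 members undetected on every scale had at most 54 reads in either library, so their ratios carry wide counting intervals.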

Other observations

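Rab-like genes whose symbols lie outside the naming rule were also in the table. Rabl6 was listed at 35.4 and 35.7 deposited RPKM in replicates 1 and 2, Rabl3 at 7.996 and 6.28, and Rabl2 at 3.23 and 3.23. Rab7l1, an older symbol of Rab29, was listed at 4.52 and 4.88. Their lengths were not checked, so these values give no order.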
